A study of Saccharomyces cerevisiae with 18 samples.

Results

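K150I and S158H are 2 single-residue substitutions in the DNA-binding domain of Ste12, the yeast transcription factor through which pheromone signalling and invasive growth both act. In an earlier mutational scan that the study drew on, cells with either variant mated like wild type but parted in invasion: K150I was hyper-invasive and S158H invasion-defective. That mating selection used MATa cells, whereas the strains measured here were MATα. Gene expression with these variants was compared here directly, between the 5 K150I libraries and the 5 S158H libraries of a table of 35 RNA-seq libraries from 7 genotypes, with URA3 left out. All strains were BY4705 MATα with the chromosomal STE12 gene deleted, and each carried wild-type STE12 or a variant under its own promoter on a centromeric LEU2 plasmid. Cells were grown to exponential phase without added pheromone, as far as the sources used here say. Replicates 1 and 2 were deposited as 1 pooled sample, called experiment 1 here, and replicates 3, 4 and 5 as another, called experiment 2. The 5 wild-type libraries of the same table served as a reference. Whether the strains of a genotype came from separate transformants was not given in the sources used here, so a p-value measures the spread between these libraries.

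In MATα cells, pheromone from the opposite mating type binds the receptor Ste3 and frees a G protein, and a kinase cascade then relieves Ste12 of its repressors. Ste12 then turns on genes for cell adhesion, fusion and nuclear fusion from sites known as pheromone response elements. The same cascade also drives invasive growth, where Ste12 acts with Tec1 on genes for adhesion and cell-wall remodelling, among which FLO11 encodes the flocculin needed to penetrate agar.

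Totals per library ran from 1577778 to 4528833 UMIs in K150I and from 1648904 to 3839794 UMIs in S158H, where a UMI (unique molecular identifier) marks 1 captured transcript. Levels are given as CPM, UMI counts scaled by TMM to a library of 1000000. The first principal component of the 10 libraries held 62.9% of their variance and parted replicates 1 to 3 from replicates 4 and 5 in both genotypes, and the second held 15.2%. The libraries fitted their mating type: the 5 α-specific genes summed to 3410 to 5486 CPM in K150I and 2921 to 4639 CPM in S158H. The 7 a-specific genes summed to 32.4 to 96.9 CPM and 37.5 to 71.4 CPM, and the 10 diploid and meiotic genes to 64.8 to 121 CPM and 70.1 to 111 CPM, with no marker at 0 UMIs in all libraries of either variant. URA3, which had been used to replace STE12 and whose full removal the study did not check, was unequal between the strains: the S158H libraries held 41, 52, 41, 279 and 342 URA3 UMIs and the K150I libraries 7, 6, 2, 0 and 0. With URA3 kept in the table its log2 fold change was −5.99 ± 1.42 (SE), which did not pass the test (edgeR quasi-likelihood test, adjusted p = 0.313), and its part in the other results was not tested. Without S158H replicates 4 and 5, which hold the most URA3 and were left out after this had been seen, the same 3 genes were called as described below. The S158H libraries that remained still held 41, 52 and 41 URA3 UMIs. That fit therefore did not remove the difference in URA3 and cannot show whether it matters.

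Few genes passed between the 2 strains in the fit without a block. Of 6139 genes tested, 3 (0.0489%) passed an adjusted p of 0.05 in the edgeR quasi-likelihood test of all 35 libraries. All of them, FIG1, AGA1 and KAR4, were higher in K150I and belong to the mating response. No gene was lower in K150I by that test or by DESeq2, which called the same 3. At an unadjusted p below 0.05 edgeR gave 77 genes (1.25%), 42 higher and 35 lower. This is less than the share of 0.05 that genes with no difference would give, so the test was conservative here. It leaves out the pairing by replicate number described below, and few calls in it do not show that few genes differ. Against wild type, which both comparisons share, 4 genes passed in K150I (0.0652%), the same 3 as higher and ALP1 as lower (0.0163%). DESeq2 called 9 there, 6 higher and 3 lower. In S158H none passed, with 179 at an unadjusted p below 0.05 and 2 called by DESeq2.

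FIG1 encodes a membrane protein that takes part in calcium entry and fusion during mating (YBR040W, chromosome II, 316968 to 317864 on R64). It stood at 74.1, 93.4, 124, 59.2 and 114 CPM in K150I replicates 1 to 5, and at 9.24, 16.9, 19.4, 16.1 and 12.6 CPM in those of S158H. Every K150I library lay well above every S158H library, a difference of 6.26-fold (log2 fold change 2.65 ± 0.32 SE, 95% confidence interval 2.00 to 3.30, adjusted p = 7.16e-06). Wild type had 22.3 ± 4.17 CPM (SD, n = 5). K150I was above it (log2 fold change 2.06 ± 0.31 SE, edgeR adjusted p = 0.000567), while S158H differed from it by −0.58 ± 0.33, which did not pass.

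AGA1 encodes the anchorage subunit of agglutinin, which tethers the adhesion subunit to the cell wall (YNR044W, chromosome XIV, 703699 to 705876). It had 843, 834, 1224, 845 and 1024 CPM in K150I and 195, 235, 457, 389.5 and 276 CPM in S158H. The groups again did not overlap, and the difference was 3.07-fold (log2 1.62 ± 0.21 SE, 95% confidence interval 1.19 to 2.05, edgeR adjusted p = 2e-05). The S158H mean of 311 ± 109 CPM was close to the wild-type mean of 299 ± 48.6 CPM (SD, n = 5), with a log2 difference of 0.06 ± 0.20 SE. In K150I the gene was above wild type by 1.68 ± 0.21 on the log2 scale (adjusted p = 3.05e-05).

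KAR4 encodes a transcription factor that works with Ste12 on genes for nuclear fusion (YCL055W, chromosome III, 27929 to 28936). Its 5 K150I libraries held 92.3, 97.4, 114, 103 and 139.6 CPM and its S158H libraries 42.8, 49.2, 58.5, 49.4 and 59.9 CPM, a 2.10-fold difference with no overlap (log2 1.07 ± 0.13 SE, 95% confidence interval 0.81 to 1.33, edgeR adjusted p = 7.16e-06). Wild type lay between them, at 67.5 ± 9.08 CPM (SD, n = 5). K150I was above it by 0.70 ± 0.13 on the log2 scale (adjusted p = 0.0102), and S158H was at −0.37 ± 0.13, which did not pass.

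**Figure D1:**
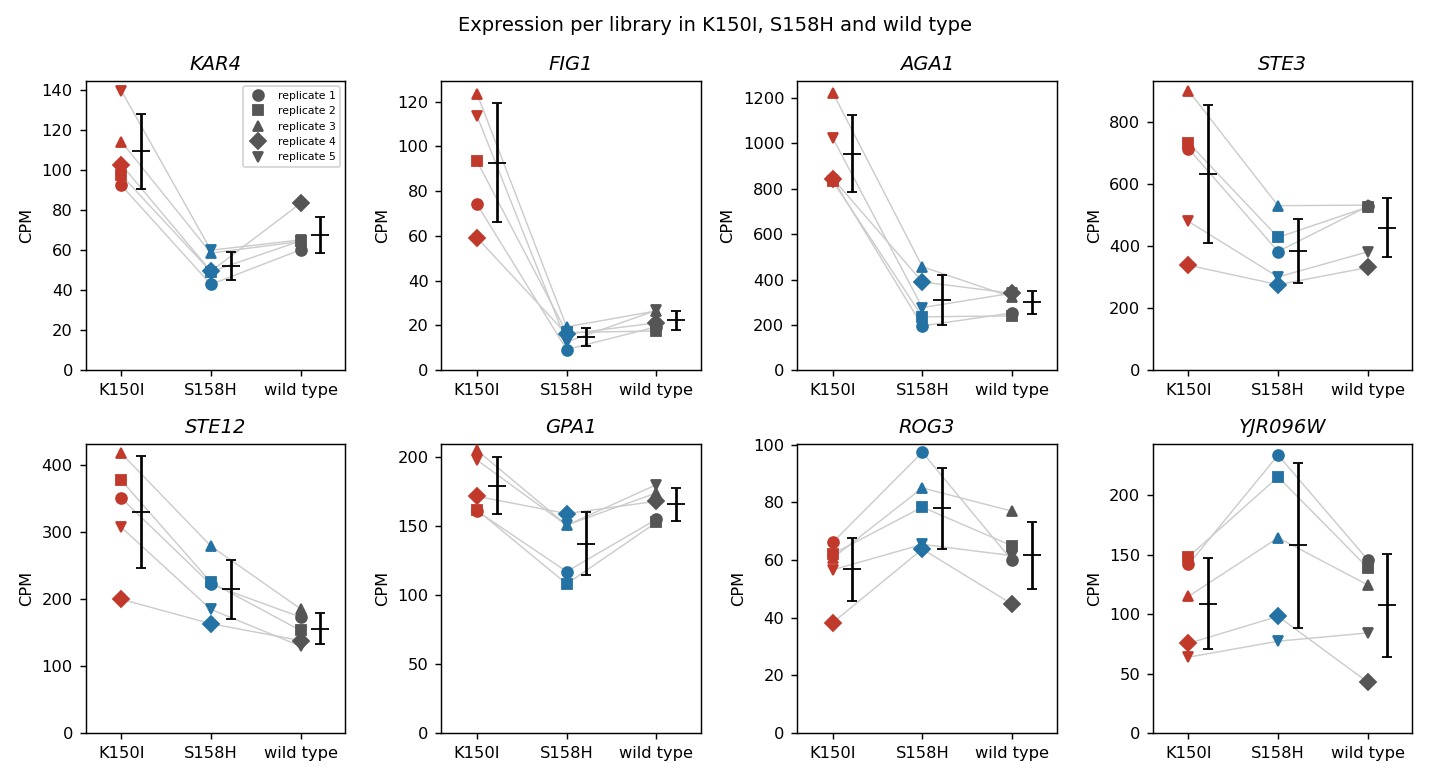
CPM (linear axis from 0) in each library of K150I, S158H and wild type for the 3 genes called in all 35 libraries without a block and the 5 others called there with replicate number as a block. Points are libraries, shaped by replicate number and joined in grey across genotypes, and the bar beside them is the mean with its SD. FIG1, AGA1 and KAR4 do not overlap between K150I and S158H, while STE3, STE12 and YJR096W overlap and differ the same way in each of the 5 replicate numbers.

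The called genes had a wide range over the whole set of genotypes. K150A, a different substitution of the residue altered in K150I, had 186 ± 57.4 CPM of FIG1, 1064 ± 157.6 CPM of AGA1 and 123 ± 18.4 CPM of KAR4 (SD, n = 5). In the mating-defective variants A160P, K146D and K152L the means were 2.09 to 2.69 CPM of FIG1, 22.3 to 25.6 CPM of AGA1 and 24.2 to 25.8 CPM of KAR4. The S158H means lay below those of K150I and above those of these 3 variants, and S158H did not differ from wild type by a margin that passed for any of the 3 genes, with or without the block. The 3 calls held with each library left out in turn, but AGA1 missed the threshold in a fit of the 10 libraries alone (edgeR adjusted p = 0.0501). In experiment 2 alone FIG1 (adjusted p = 0.0592) and KAR4 (adjusted p = 0.0512) missed it, and in replicates 4 and 5 alone none of the 3 passed, with log2 fold changes of 2.61 for FIG1, 1.49 for AGA1 and 1.15 for KAR4.

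The K150I and S158H libraries of the same replicate number moved together, so a fit with replicate number as a block was made as well. It called 8 genes of 6139 (0.13%), 6 higher in K150I (0.0977%) and 2 lower (0.0326%). Against wild type the same fit called 24 genes in K150I (0.391%), 14 higher (0.228%) and 10 lower (0.163%), and 73 in S158H (1.19%), 50 higher (0.814%) and 23 lower (0.375%). Beside FIG1, AGA1 and KAR4, the higher genes were STE3, STE12 and GPA1. ROG3 and YJR096W were lower. Without a block STE3, STE12, GPA1 and YJR096W passed in experiment 1 alone, and STE3 and STE12 in replicates 1 to 3 alone. When the block was fitted to the 10 libraries of the 2 variants alone, 121 of 5834 genes (2.07%) passed, 35 of them higher in K150I (0.6%) and 86 lower (1.47%). The number of calls therefore rested on the fit, while the 3 genes called without the block were among the calls of both blocked fits.

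STE3 encodes the pheromone receptor of MATα cells. In K150I it stood at 713, 732, 899, 338 and 479 CPM, and in S158H at 382, 427, 529, 275 and 300.0 CPM. The ranges overlapped, since replicates 4 and 5 were low in both genotypes, but K150I was above S158H in all 5 replicate numbers, as it was for 277 genes (4.51%). The log2 fold change was 0.72 ± 0.34 SE without the block (edgeR adjusted p = 1.00) and 0.68 ± 0.11 with it (adjusted p = 0.00119). GPA1 encodes the Gα protein coupled to that receptor, and it had 161, 161, 204, 171 and 197 CPM in K150I and 117, 108, 150.4, 159 and 150.2 CPM in S158H. These groups did not overlap, and the difference was small, 0.39 ± 0.11 SE without the block (adjusted p = 1.00) and 0.40 ± 0.08 with it (edgeR adjusted p = 0.0115).

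STE12 itself, read from the plasmid in these strains, had 351, 377, 418, 199.6 and 307 CPM in K150I and 222, 225, 279, 163 and 185 CPM in S158H. K150I was higher in every replicate number, with a log2 fold change of 0.62 ± 0.24 SE without the block (edgeR adjusted p = 1.00) and 0.61 ± 0.11 with it (adjusted p = 0.00354). Both variants had more STE12 than wild type, which had 156 ± 23.4 CPM (SD, n = 5): with the block the log2 difference was 1.06 ± 0.11 SE in K150I (adjusted p = 3.15e-07) and 0.45 ± 0.11 in S158H (edgeR adjusted p = 0.04). The means of the other variants were also above that of wild type, at 361 CPM in K150A, 369 CPM in K146D, 451 CPM in K152L and 564 CPM in A160P. LEU2, the marker on the plasmid, moved less, at 3163 ± 640.1 CPM in K150I and 3028 ± 694 CPM in S158H (SD, n = 5), with a log2 difference of 0.06 ± 0.20 SE, but with the block it was above wild type in both (0.41 ± 0.08 SE, edgeR adjusted p = 0.0153 in K150I and 0.34 ± 0.08, adjusted p = 0.04 in S158H). Whether the amount of STE12 bears on the other differences was not tested.

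The genes lower in K150I than in S158H with the block, ROG3 and YJR096W, were in none of the gene lists. ROG3, which encodes an arrestin-related protein, had 66.2, 62.1, 60.7, 38.3 and 56.6 CPM in K150I and 97.4, 78.4, 85.0, 63.8 and 65.4 CPM in S158H. It was lower in K150I in all 5 replicate numbers (log2 −0.46 ± 0.08 SE with the block, edgeR adjusted p = 0.00354). Relative to wild type, ROG3 was raised in S158H with the block (0.34 ± 0.08 SE, adjusted p = 0.0323) and not changed by a margin that passed in K150I (−0.11 ± 0.08). YJR096W, which encodes an aldo-keto reductase, had 142, 148, 115, 75.4 and 63.8 CPM in K150I and 234, 216, 164, 98.2 and 77.3 CPM in S158H (log2 −0.51 ± 0.11 SE with the block, edgeR adjusted p = 0.04). It too was above wild type in S158H with the block (0.53 ± 0.11 SE, adjusted p = 0.0181).

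**Figure D2:**
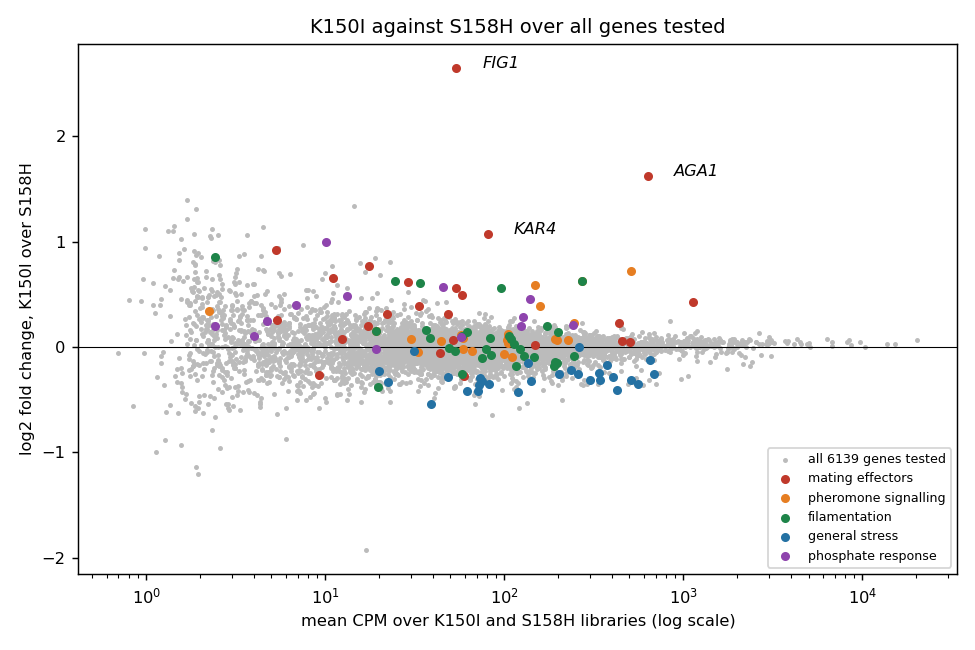
Log2 fold change of K150I over S158H against the mean CPM of the 2 variants (log axis) for the 6139 genes tested. Coloured points are the members of 5 gene lists, a gene in several lists taking the colour of the last; FIG1 (2.65) and AGA1 (1.62) stand above the rest, KAR4 (1.07) stands above other genes of its level, and 27 of the 28 general stress genes lie below 0, down to −0.54.

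Of 25 mating effectors, whose products act in adhesion, cell fusion and nuclear fusion, 3 were higher in K150I than in S158H in the fits of all 35 libraries. This held without the block, beside 0.0489% of all genes, and with it, beside 0.0977%. The remaining members did not pass there, although 22 of the 25 had a positive log2 fold change, with a median of 0.31 beside −0.00043 over all genes tested, of which 49.8% were positive. In the blocked fit of the 10 libraries 9 of 25 passed, all higher, beside 0.6% of all genes. They were FIG1, AGA1, KAR4, PRM1 (0.75 ± 0.15 SE), FUS2 (0.61 ± 0.11), FUS1 (0.58 ± 0.08), FIG2 (0.48 ± 0.07), SAG1 (0.46 ± 0.06) and AFB1 (0.23 ± 0.05). FUS1 and FUS2 are needed for fusion of the mating partners, PRM1 for fusion of their membranes, and SAG1 is the α-agglutinin that binds the partner cell. FUS1, a widely used reporter of the pathway, had 50.5, 46.2, 71.3, 73.1 and 79.4 CPM in K150I and 33.3, 30.2, 40.9, 56.6 and 57.2 CPM in S158H, so that each K150I library was above its S158H counterpart while the ranges overlapped. PRM3, a protein of nuclear fusion, had a log2 fold change of 0.92 ± 0.35 SE without the block and passed in none of the 3 fits. Against wild type the median of the 25 was 0.09 in K150I (16 positive) and −0.25 in S158H (4 positive). With the block in all 35 libraries 3 passed as higher than wild type in K150I and 1 as lower, beside 0.228% and 0.163% of all genes. In S158H 3 passed as lower, beside 0.375%, and 0 as higher.

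Of 22 pheromone signalling genes 0 passed without the block in edgeR or DESeq2. An unadjusted p below 0.05 was found for 4 of them, beside 1.25% of all genes, and the median was 0.08. In the blocked fit of the 10 libraries 5 of 21 passed, all higher in K150I, beside 0.6% of all genes: STE3, STE12, SST2 (0.60 ± 0.06 SE), GPA1 and FAR1 (0.24 ± 0.06). SST2, which switches the G protein off and so desensitizes the cell, had 183, 184, 195, 128 and 198 CPM in K150I and 106, 124, 141, 98.8 and 120.2 CPM in S158H. The genes of the kinase cascade had log2 fold changes of 0.08 for STE20, −0.05 for STE11, 0.06 for STE7, 0.04 for FUS3, 0.15 for KSS1 and −0.07 for the scaffold STE5. The other G protein subunits, STE4 and STE18, were at 0.06 ± 0.14 and −0.02 ± 0.12 SE. Of the repressors of Ste12, DIG1 was at −0.10 ± 0.10 SE and DIG2 at 0.35 ± 0.43.

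The invasion genes were examined next, since the variants differed in this phenotype in the earlier scan. Of 31 filamentation genes 0 passed without the block in edgeR or DESeq2 and 4 had an unadjusted p below 0.05, beside 1.25% of all genes. Of the 31, 16 were positive, and the median log2 fold change was 0.03. With the block in the 10 libraries 4 of 30 passed, all higher in K150I, beside 0.6% of all genes: STE12, FLO11, YLR042C and PRY2. STE12 was also counted among the pheromone signalling genes. FLO11 had 36.4, 38.7, 35.3, 21.5 and 16.7 CPM in K150I and 16.5, 28.6, 26.0, 13.3 and 11 CPM in S158H (log2 0.63 ± 0.30 SE without the block, edgeR adjusted p = 1.00, and 0.65 ± 0.12 in the blocked fit of the 10 libraries, adjusted p = 0.00958). It was above wild type in K150I with the block (1.08 ± 0.24 SE, adjusted p = 0.0311), and in S158H it did not pass (0.45 ± 0.25).

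PRY2, which encodes a secreted sterol-binding protein, had 101, 92.0, 103, 164 and 110.1 CPM in K150I and 71.1, 57.5, 60.9, 122 and 76.5 CPM in S158H. Its K150I libraries exceeded their S158H counterparts in all 5 replicate numbers (0.58 ± 0.07 SE in the blocked fit of the 10 libraries, edgeR adjusted p = 7.13e-05). YLR042C, which encodes a cell wall protein, had 32.7, 31.2, 38.5, 44.7 and 57.8 CPM in K150I and 21.3, 22.7, 22.1, 26.6 and 41.8 CPM in S158H (0.61 ± 0.10 SE, adjusted p = 0.00243 in that fit). The mucin MSB2 and the membrane protein SHO1, which act at the head of the filamentation pathway, differed by 0.20 ± 0.13 and 0.08 ± 0.09 SE on the log2 scale without the block, and the kinase KSS1 by 0.15 ± 0.17. None of these passed in any of the 3 fits. Against wild type, KSS1 was lower in S158H with the block (−0.66 ± 0.13 SE, edgeR adjusted p = 0.0181), and in K150I it was at −0.50 ± 0.13, which did not pass.

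TEC1, the partner of Ste12 in invasive growth, had nearly the same level in the 5 K150I libraries, from 107 to 111 CPM, and 93.8 to 125 CPM in S158H. Its log2 fold change was 0.11 ± 0.14 SE, with a 95% confidence interval that reached from −0.18 to 0.39, so larger differences lay outside it. Among other regulators of filamentation, with wider errors, FLO8 was at −0.03 ± 0.19 SE, PHD1 at 0.03 ± 0.31, SOK2 at −0.09 ± 0.21 and MSS11 at 0.17 ± 0.20. The largest negative value of the list was −0.38, for MGA1.

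SIP18 and GRE1, both of the osmotic response list, stood above wild type in both variants with the block. In the edgeR fit of all 35 libraries without the block neither passed against wild type in either variant. Of 21 alternative fits, the blocked fit among them, SIP18 passed in 5 and GRE1 in 3 in each variant. SIP18, a desiccation protein, had 32.5, 40.7, 30.4, 69.6 and 29.1 CPM in K150I and 46.5, 43.6, 38.8, 43.8 and 22.9 CPM in S158H, while wild type had 10.8 ± 2.23 CPM (SD, n = 5). Neither variant overlapped wild type, and both lay above it with the block (1.87 ± 0.38 SE, edgeR adjusted p = 0.0152 in K150I, and 1.88 ± 0.38, adjusted p = 0.0181 in S158H). Between the variants its log2 difference was 0.02 ± 0.39 SE. GRE1, a hydrophilin, also lay above wild type in both without overlap, with 19.9 ± 4.99 CPM in K150I, 21.4 ± 4.77 CPM in S158H and 8.30 ± 1.59 CPM in wild type (SD, n = 5; edgeR adjusted p with the block 0.0153 and 0.0121). SPG4, a gene of stationary phase, had 31.5 ± 7.57, 39.8 ± 12 and 12.1 ± 6.75 CPM, and with the block it passed against wild type in S158H (edgeR adjusted p = 0.0304) and not in K150I (adjusted p = 0.192). For GRE1 the difference between the variants was −0.11 ± 0.35 SE without the block, and for SPG4 −0.34 ± 0.43. Their intervals in that fit include differences in either direction. In the blocked fit of the 10 libraries the confidence interval of SPG4 lay below 0, from −0.55 to −0.15 (−0.35 ± 0.09 SE). SPG4 did not pass there (edgeR adjusted p = 0.0721), and the interval of GRE1 still included 0 (−0.14 ± 0.13 SE). Over the whole list of 31 osmotic response genes 0 passed in edgeR or DESeq2 without the block, with 0 at an unadjusted p below 0.05, and the median was −0.06. In the blocked fit of the 10 libraries 4 of 31 were lower in K150I, beside 1.47% of all genes: ALD3 (−0.48 ± 0.08 SE), CTT1 (−0.41 ± 0.09), GCY1 (−0.34 ± 0.07) and SPI1 (−0.32 ± 0.06).

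**Figure D3:**
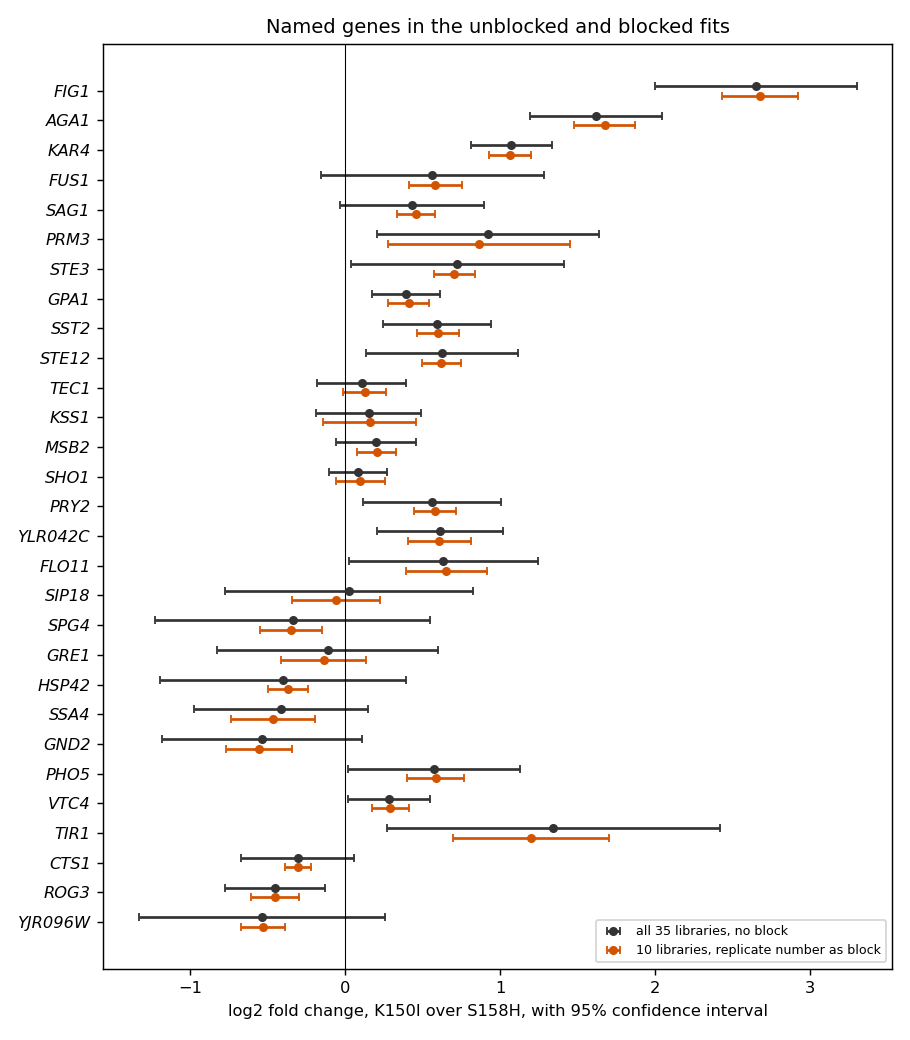
Log2 fold change of K150I over S158H with its 95% confidence interval for 29 named genes, in the edgeR fit of all 35 libraries without a block (dark) and in the fit of the 10 libraries with replicate number as a block (orange). The estimates nearly coincide and the blocked interval of most genes is narrower; FIG1, AGA1 and KAR4 have intervals far above 0, TIR1 has a high but wide one, and TEC1, KSS1 and SHO1 have intervals that include 0 in both fits.

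The lower side of the comparison held stress and storage-carbohydrate genes, with small differences in most libraries. Of 28 general stress genes 27 had a negative log2 fold change, and the median was −0.30, but 0 passed without the block in edgeR or DESeq2, and 0 had an unadjusted p below 0.05. With the block in all 35 libraries 0 passed either. Leaving out 1 library moved the median to between −0.51, without S158H replicate 5, and −0.10, without S158H replicate 2. In the blocked fit of the 10 libraries 18 of 28 were lower in K150I and none higher, beside 1.47% of all genes lower. Examples were GND2, a dehydrogenase of the pentose phosphate pathway (−0.56 ± 0.10 SE), SOL4 (−0.43 ± 0.07), the catalase CTT1, and HSP42, a small heat shock protein (−0.37 ± 0.06). HSP42 ranged from 213 to 472 CPM in K150I and from 222 to 698 CPM in S158H, and K150I was lower in all 5 replicate numbers. Within the replicate numbers the median of the list was −0.29, −0.37, −0.36, −0.07 and −0.24, so that replicate 4 showed the smallest difference. Replicates 4 and 5 also stood apart from replicates 1 to 3 within a variant, as for the trehalose synthesis subunit TSL1, with 369.5, 401, 310.4, 43.5 and 48.6 CPM in K150I, and the part of that division in the difference was not tested. Against wild type the 28 general stress genes had a median of 0.13 in K150I (20 positive) and 0.41 in S158H (27 positive). With the block in all 35 libraries 6 passed as higher than wild type in S158H, beside 0.814% of all genes, and 0 in K150I.

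Of 17 trehalose and glycogen genes 8 were lower in K150I than in S158H in the blocked fit of the 10 libraries and none higher, beside 1.47% of all genes lower. Of these, TPS1, TPS2, TSL1, GPH1 and PGM2 were also counted among the general stress genes. Against wild type their median was 0.10 in K150I and 0.28 in S158H. Between the variants, in all 35 libraries, 0 passed with the block, and without it 0 passed in edgeR or DESeq2 and 0 had an unadjusted p below 0.05. The median log2 fold change of K150I over S158H was −0.21 without the block, but leaving out 1 library moved it to between −0.43, without K150I replicate 1, and 0.006, without S158H replicate 2, where the sign turned. The lower genes included TPS1 and TPS2, which make trehalose (−0.32 ± 0.06 and −0.28 ± 0.06 SE), and GPH1, glycogen phosphorylase (−0.33 ± 0.07). Of 23 chaperones, with a median of −0.17, 5 were lower in the blocked fit of the 10 libraries beside 1.47% of all genes, among which HSP104, a disaggregase, had −0.30 ± 0.07 SE and HSP82 −0.29 ± 0.06. HSP42 and HSP78, also among them, were counted with the general stress genes as well. SSA4, an Hsp70 induced by stress, differed by −0.85 in experiment 1 alone (edgeR adjusted p = 0.00073) but ran the opposite way in replicate 4 (162 CPM in K150I and 148 CPM in S158H) and replicate 5 (96.9 and 82.4 CPM). CTS1, the chitinase that separates daughter cells, was the 1 of 12 daughter cell separation genes that passed as lower in the blocked fit of the 10 libraries, beside 1.47% of all genes (−0.31 ± 0.04 SE, edgeR adjusted p = 0.000232), with 669 to 1038 CPM in K150I and 783 to 1237 CPM in S158H.

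Phosphate genes stood on the other side. Of 13 phosphate response genes 12 had a positive log2 fold change, with a median of 0.25. None passed in edgeR or DESeq2 without the block or in edgeR with it in all 35 libraries, and 2 had an unadjusted p below 0.05, beside 1.25% of all genes. In the blocked fit of the 10 libraries 5 of 12 were higher in K150I, beside 0.6% of all genes: PHO12 (0.93 ± 0.20 SE), the acid phosphatase PHO5 (0.58 ± 0.09), the phosphate transporter PHO84 (0.46 ± 0.06), and VTC4 and VTC1, which make polyphosphate (0.29 ± 0.06 and 0.23 ± 0.06). PHO5 had 49.3, 51.6, 72.4, 53.4 and 45.5 CPM in K150I and 29.7, 34.0, 46.2, 35 and 38.2 CPM in S158H, which overlapped slightly. The median of the list was positive in every replicate number, from 0.18 to 0.41. Against wild type the median of the 13 genes was −0.06 in K150I (6 positive) and −0.32 in S158H (1 positive). PHO12 is nearly identical to PHO11, so reads of the pair could not be told apart with certainty.

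**Figure D4:**
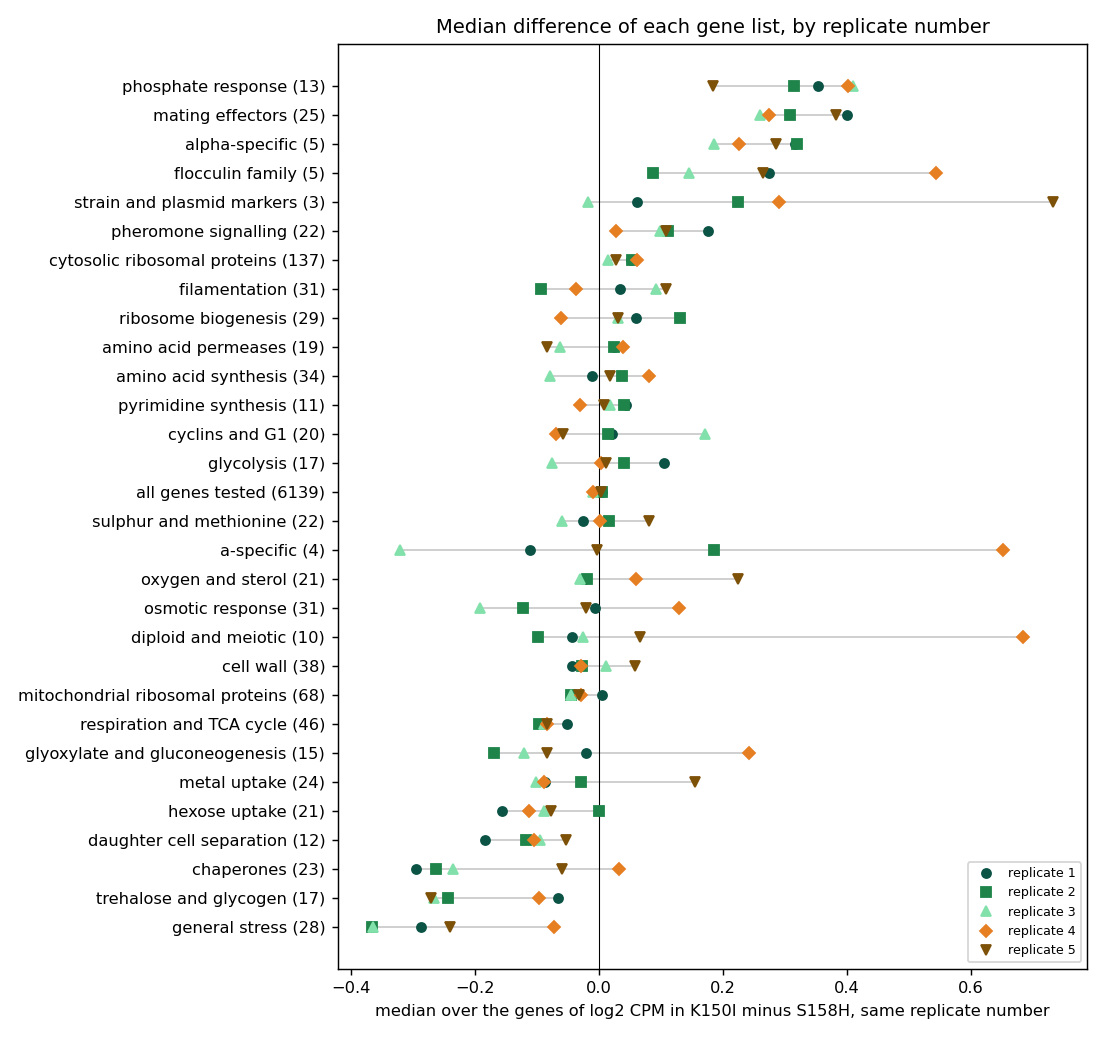
Median over the genes of each list of log2 CPM in K150I minus S158H at the same replicate number, 1 point per number, with the number of genes tested in brackets and all 6139 genes as a reference. Phosphate response, mating effectors and α-specific genes lie above 0 in all 5 numbers, general stress genes lie below 0 in all 5 (−0.37 to −0.07), and the 4 a-specific and 10 diploid and meiotic genes are widely spread.

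Of the 5 α-specific genes, 4 were higher in K150I in the blocked fit of the 10 libraries (STE3, SAG1, MF(ALPHA)2 and AFB1), beside 0.6% of all genes. STE3 was also counted with the pheromone signalling genes, and SAG1 and AFB1 with the mating effectors. In all 35 libraries STE3 alone passed with the block, and 0 passed without it in edgeR or DESeq2, with 1 at an unadjusted p below 0.05. Their median was 0.25 and ran from 0.15, without K150I replicate 3, to 0.44, without S158H replicate 3. MF(ALPHA)2, a pheromone gene, differed by 0.25 ± 0.04 SE in the blocked fit of the 10 libraries. TIR1, a cell wall mannoprotein of cells short of oxygen, had 10.7, 11.2, 23.4, 8.70 and 50.2 CPM in K150I against 8.12, 6.69, 13.4, 2.22 and 9.46 CPM in S158H (1.20 ± 0.24 SE in the blocked fit of the 10 libraries, edgeR adjusted p = 0.0131), with K150I replicate 5 far above the others. The 12 daughter cell separation genes had a median of −0.15, the 4 a-specific genes 0.24 and the 10 diploid and meiotic genes 0.02. The 137 cytosolic ribosomal protein genes had a median of 0.04, the 68 mitochondrial ones −0.03, the 46 genes of respiration and the TCA cycle −0.08, the 17 of glycolysis 0.02, the 34 of amino acid synthesis −0.01 and the 29 of ribosome biogenesis 0.03. The 22 sulphur and methionine genes had a median of −0.003, which became −1.64 without K150I replicate 4 and 1.63 without S158H replicate 4, so that it rested on those libraries. The median was 0.003 for the 24 metal uptake genes, 0.05 for the 11 of pyrimidine synthesis and the 21 of oxygen and sterol metabolism, 0.04 for the 20 of cyclins and G1, −0.01 for the 38 cell wall genes and the 15 of gluconeogenesis, and −0.02 for the 21 of hexose uptake and the 19 amino acid permeases. None of these lists had a member that passed without the block in edgeR or DESeq2, and none had more than 1 member at an unadjusted p below 0.05. In the blocked fit of the 10 libraries the lower genes among them included PIR3, a cell wall protein (−0.65 ± 0.09 SE), MTH1, which represses glucose transporter genes (−0.30 ± 0.08), and the glucose kinases HXK1 (−0.35 ± 0.07) and GLK1 (−0.33 ± 0.07). The 5 flocculin genes had a median of 0.11, and FLO11 was the member that passed in that fit.

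The genes with the lowest p-values short of the threshold included GAL80, ALP1 and PMT5. GAL80, the repressor of Gal4, was lower in every K150I library than in every S158H library, at 109 to 118 CPM against 123 to 145 CPM (log2 −0.24 ± 0.07 SE without the block, edgeR adjusted p = 1.00). ALP1, an arginine permease, had 3.21 to 5.22 CPM in K150I and 6.15 to 12.2 CPM in S158H (−0.87 ± 0.26), and K150I was below wild type (−1.33 ± 0.26 SE on the log2 scale, edgeR adjusted p = 0.0224). PMT5, a protein mannosyltransferase, had 40.3 to 49.9 CPM in K150I and 32.6 to 37.3 CPM in S158H. Over all genes the libraries of the 2 variants did not overlap for 25 (0.407%), of which K150I was above for 13 (0.212%) and below for 12 (0.195%). The log2 fold changes of the 8 genes called with the block did not differ between the experiments by a margin that passed the interaction test. That test called 0 of 6139 genes by edgeR or DESeq2, with 31 (0.505%) at an unadjusted p below 0.05. It too was conservative and left out the pairing, so its 0 calls do not show that the experiments were alike. For AGA1 the change in experiment 2 was smaller by 0.50 ± 0.30 SE on the log2 scale.

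Binding by the same variants was measured with calling cards. The variants were joined to the PiggyBac transposase, expressed from the galactose-inducible GAL1 promoter, and the insertions they left near their binding sites were counted by UMI. These fusions were expressed in BY4705 cells that kept their own STE12, so they measure the variant beside a wild-type copy. They were induced on galactose plates, whereas the RNA came from cells in exponential phase with STE12 under its own promoter. Binding and transcript were therefore measured in different strains and growth conditions. There were 2 libraries per genotype, with 6631 and 9456 UMIs in peaks for K150I and 5904 and 6066 UMIs for S158H. UMIs were summed over the peaks of each promoter window, from 1000 bp upstream to 200 bp downstream of the coding start. Of 981 windows tested, 307 (31.3%) passed in limma, 130 higher in K150I (13.3%) and 177 lower (18%). The 981 include 361 windows with 0 UMIs in both variants, where no difference could be seen. Some calls rest on very low counts: the ALP1 window passed as lower on 0 and 0 UMIs in K150I against 1 and 1 in S158H (limma adjusted p = 6.12e-05). A peak was counted in every window it overlapped, so these calls are not all separate binding sites. The calls included 35 higher windows with 0 UMIs in both S158H libraries and 80 lower windows with 0 UMIs in both K150I libraries. A count of 0 allows up to 3 UMIs in a library, for counting error only. Of the called windows, 19 had 10 or more UMIs in a library of each variant. Without K150I replicate 1 there were 196 calls.

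Few of the genes next to called windows passed an expression test in all 35 libraries. Of the 121 genes with a higher K150I window and a measured transcript, 1 passed without the block, beside 3 of the 876 windows with a tested gene. With the block 2 passed, beside 6 of the 876. A positive expression log2 fold change was found for 60 of the 121, or 49.6%. Of the genes with a lower window 0 passed with the block, or without it in edgeR or DESeq2. In this set 51.3% were positive, beside 47.9% over the 876. The medians were −0.002 and 0.003, beside −0.004 over those 876. The blocked fit of the 10 libraries was not counted over these sets. Among the named genes with higher windows, KAR4, STE3 and PRY2 passed there as higher in K150I, and MSB2 and PRM3 did not pass. With lower windows, SAG1, PHO5 and PHO12 passed as higher, GAL80 as lower, and ALP1 did not pass.

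The 3 genes called for expression had 3 different patterns of binding. At KAR4 a peak centred at −38 bp from the coding start (chromosome III, 27806 to 27976) held 233 and 275 UMIs in K150I, 2 and 9 UMIs in S158H and 347 and 237 UMIs in wild type. K150I thus kept binding near the wild-type level where S158H had nearly none, and the window was higher in K150I by 4.25 ± 0.68 SE on the log2 scale (limma adjusted p = 0.00116). At FIG1 neither variant had a UMI in either library, against 55 and 38 UMIs in wild type at the peak at −354 bp, so the called gene with the largest fold change in expression had no measured insertion by either variant in this window. At AGA1 the peak at −310 bp held 42 and 46 UMIs in K150I, 102 and 42 UMIs in S158H and 15 and 19 UMIs in wild type. The AGA1 window differed by −0.97 ± 0.93 SE, which did not pass in limma (adjusted p = 0.624), while edgeR on the UMIs called it lower in K150I (adjusted p = 0.0215). In both tests its binding was not higher in K150I, whereas its expression, measured in other strains and growth conditions, was.

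**Figure D5:**
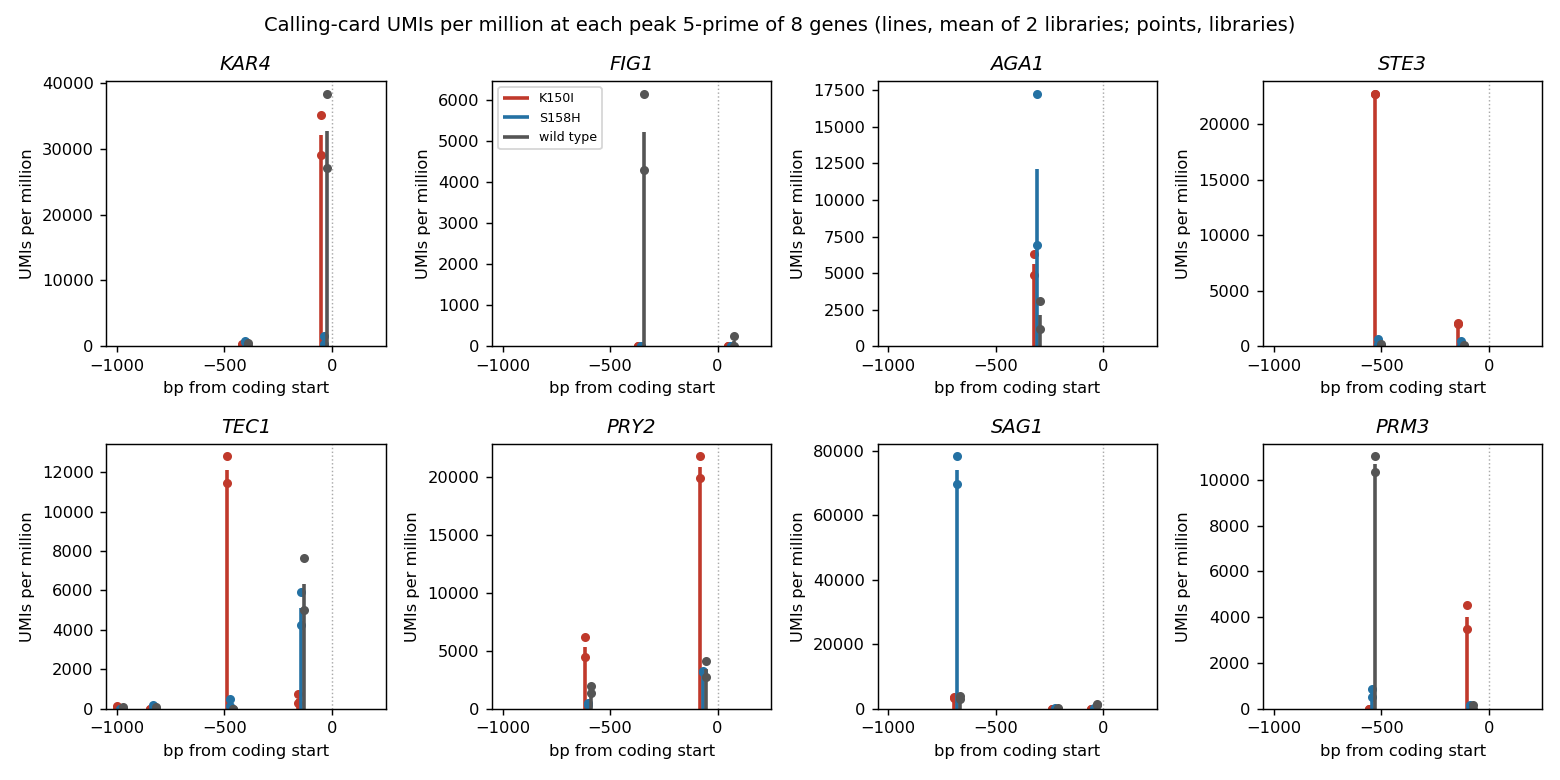
Calling-card UMIs per 1000000 UMIs in peaks at each peak around 8 genes, by distance from the coding start in bp (negative is upstream). Points are the 2 libraries of each genotype and lines their mean, with the genotypes set slightly apart; K150I and wild type share the KAR4 peak at −38 bp, only wild type has the FIG1 peak at −354 bp, and at TEC1 the K150I peak lies at −474 bp and the peak of S158H and wild type at −142 bp.

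STE3, PRY2 and MSB2 also had more K150I insertions. The STE3 window held 165 and 234 UMIs in K150I, 4 and 4 in S158H and 3 and 0 in wild type (log2 5.02 ± 0.58 SE, limma adjusted p = 0.000194), most of them at a peak at −516 bp. PRY2 had 173 and 248 UMIs in K150I against 21 and 22 in S158H (2.83 ± 0.43, adjusted p = 0.000912). MSB2 had 94 and 108 against 21 and 11 UMIs (2.28 ± 0.53, adjusted p = 0.00876), a call that was lost without K150I replicate 1 (adjusted p = 0.0679) or without S158H replicate 2 (adjusted p = 0.0703). PRM3 held 30 and 33 UMIs in K150I and 6 and 3 in S158H (2.32 ± 0.41 SE, adjusted p = 0.00206). The expression of MSB2 differed by 0.20 ± 0.13 SE on the log2 scale despite that. SST2 had 27 and 20 UMIs in K150I, 6 and 6 in S158H and 94 and 37 in wild type, which did not pass in limma (1.46 ± 0.63 SE, adjusted p = 0.137) but did in edgeR on the UMIs (adjusted p = 0.0385). FUS1 had 91 and 191 UMIs in K150I and 100 and 97 in S158H, a log2 difference of 0.02 ± 0.73 SE with a 95% confidence interval from −1.64 to 1.67, which did not pass.

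SAG1 went the other way. Its window held 25 and 31 UMIs in K150I and 414 and 476 in S158H, against 73 and 27 in wild type (−4.36 ± 0.51 SE, limma adjusted p = 0.000196), almost all at a peak centred at −680 bp. Its expression differed by 0.43 ± 0.23 SE without the block, positive in K150I, and passed as higher in K150I in the blocked fit of the 10 libraries (adjusted p = 0.000224). The same division was seen at PHO5, with 0 and 0 UMIs in K150I and 10 and 9 in S158H (limma adjusted p = 0.000131) and more transcript in K150I. GAL80, in contrast, had fewer UMIs in K150I, 1 and 4 against 57 and 77 (limma adjusted p = 2.01e-05), and less transcript.

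At some promoters the variants used different positions. In the TEC1 window the totals were 79 and 128 UMIs in K150I and 29 and 37 in S158H, which did not pass in limma (1.20 ± 0.73 SE, adjusted p = 0.324) but did in edgeR on the UMIs (adjusted p = 0.0107). The peak at −474 bp (chromosome II, 408643 to 408746) had 76 and 121 UMIs in K150I, 3 and 1 in S158H and 0 and 0 in wild type, and the peak at −142 bp (408830 to 409225) had 2 and 7 in K150I, 25 and 36 in S158H and 64 and 47 in wild type. When single peaks were tested, which was decided after these values had been seen, both passed in opposite directions (4.93 ± 0.73 SE, limma adjusted p = 0.000771, and −3.14 ± 0.58, adjusted p = 0.0025). PRM3 had the same division, with 30 and 33 UMIs at −88 bp in K150I, where S158H had 1 and 0, and 132 and 68 UMIs at −542 bp in wild type, where K150I had 0 and 0 and S158H 5 and 3. The level of TEC1 transcript, as given above, differed by 0.11 ± 0.14 SE.

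The windows with the lowest p-values were not those of mating genes. Among those called higher in K150I, SUT1 had 98 and 108 UMIs against 1 and 1 (log2 5.62 ± 0.20 SE). PDR18 (3 and 5 UMIs against 0 and 0) and PHO4, YFR035C and CDC26 (3 and 3 against 0 and 0) also passed, but at counts that reach no more than 5 UMIs beside the 3 that a 0 allows. The windows of PHO4, YFR035C and CDC26 had identical values, so they are not counted as separate sites. Lower were INA1 (2 and 3 against 137 and 206, −6.10 ± 0.30 SE), YDR341C (1 and 2 against 18 and 13), and PHO12 with YHR214C-D and YHR214C-E, which share 11 and 8 UMIs in S158H against 0 and 0. Wild type had 0 UMIs in both libraries at all of these windows. The expression of SUT1, a regulator of sterol uptake, differed by −0.02 ± 0.15 SE on the log2 scale and that of INA1 by 0.19 ± 0.40, and neither passed.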

How the data were processed

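RNA was made into 3′ libraries with UMIs, and the authors deposited UMI counts per gene for 35 libraries of 7 genotypes in 1 table of 7124 genes. Their processing notes name bcl2fastq, Trim Galore 0.4.1, STAR and MACS2 and the build R64, and the counting tool, its annotation and its use of strand were not given in the sources used here. Calling-card values were deposited as the natural log of UMIs per 1000000 UMIs in peaks, plus 1. From these, 30632 values of 14 libraries were turned back into UMIs, and 100% were whole within 0.001. A transposase-only control was not analysed here. Columns were assigned to genotypes by their names.

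URA3 was left out. Genes were kept by filterByExpr with a minimum count of 10 (6139 genes) and fitted in edgeR 4.0.16 (R 4.3.3) with TMM scaling, 1 coefficient per genotype and the quasi-likelihood test, over all 35 libraries so that the genotypes share an estimate of the spread. P-values were adjusted by Benjamini-Hochberg over all genes, with a threshold of 0.05. The SE of a log2 fold change was its size divided by the square root of F. The common dispersion was 0.0692, and 0.0160 with replicate number as a block. Binding windows needed 3 UMIs in at least 2 of the 14 libraries and were tested with limma 3.58.1 (trend) on log2(UMIs per 1000000 + 100), so that folds of low windows are understated. Scripts were tested on simulated data. There the fit without a block recovered 38% of log2 changes of 0.5 and 64% of those of 1, in counts simulated without effects of replicate number. The blocked fit of the 10 libraries recovered 58% and 96%, in other counts simulated with such effects. The rates therefore do not compare the fits on the same data. Genes that were not called may therefore still differ. Coordinates and names come from the RefSeq table of R64, which matched 6189 of 7124 genes.

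The deposited annotation calls the replicate number a biological replicate. Deviations of K150I and S158H libraries from their genotype means correlated at 0.64 to 0.80 for the same number and at −0.70 to 0.68 for different numbers, so the number was taken to pair them. Of 5 libraries, 4 in each genotype correlated best with their own number.

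The genes to name were every gene called, the next by p up to 20 in all, those called with the block, the 2 members of each gene list with the lowest p, a set of pathway genes, and the 5 binding windows in each direction with the lowest p. Other list members were named for their role, or because they passed in the blocked fit of the 10 libraries, after their values had been seen. The comparison and the gene lists were chosen with earlier results of these data known. The lists overlap, so a gene such as STE12, CTT1 or HSP42 counts in several, and their counts are not separate results. Alternatives were RLE size factors, DESeq2 1.42.0, other filters and thresholds, fewer libraries, experiment or replicate number as a term, each library left out, and for binding other pseudocounts, edgeR and other windows.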

Additional observations from a re-analysis of the deposited data

Results flagged for a closer look

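In 78 genes and the library totals, the highest or lowest of the 5 libraries of a variant stood apart from the other 4 by Dixon's criterion in 18 cases, a test that chance passes in about 1 of 20 groups. Replicate 4 of K150I held the highest level of CSI2 (49.3 CPM), PMT5 (49.9 CPM), PRY2 (164 CPM), MET8 (85.9 CPM), MMP1 (119 CPM) and SIP18 (69.6 CPM), and the lowest of SST2 (128 CPM). Replicate 4 of S158H held the highest level of ALP1 (12.2 CPM), MET8 (36.6 CPM), TEC1 (125 CPM) and MMP1 (84.9 CPM), and the lowest of FLO10 (3.88 CPM). MET8, an enzyme of sulphur metabolism, and MMP1, an S-methylmethionine permease, stood apart in replicate 4 of both variants. In replicate 5 of S158H, YLR042C (41.8 CPM) and PPR1 (20.9 CPM) were the highest and ATP20 (108 CPM) the lowest. SAG1 (1441 CPM) and GAL2 (3.58 CPM) were the highest in replicate 3 of S158H, and TAT2 (90.8 CPM) the lowest in replicate 3 of K150I.

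URA3 was left out of the comparison and gave a signal in S158H above that in wild type. The S158H libraries held 41, 52, 41, 279 and 342 URA3 UMIs, and the wild-type libraries 0, 1, 0, 0 and 0.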

How the results depend on the processing

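The 3 genes called between K150I and S158H were called under RLE size factors, DESeq2, no filter, experiment as a covariate, an absolute log2 fold change of at least 1, URA3 kept, and with each library left out, where log2 fold changes ran from 0.97 to 1.13 for KAR4, 2.51 to 2.77 for FIG1 and 1.49 to 1.80 for AGA1 and the count of calls was 3 each time. In the 10 libraries without a block 2 of them were called. With the replicate block 8 genes were called, and with the block in the 10 libraries alone 121. Experiment 1 alone gave 24 calls, experiment 2 alone 1, replicates 1 to 3 alone 11, and replicates 4 and 5 alone 0. Those subsets hold fewer libraries, and the cause of the differences was not otherwise tested. Binding calls (307 windows) numbered 189 with windows of 500 bp upstream and 0 bp downstream and 196 to 266 with 1 library left out, and lay between 230 and 378 under the other alternatives. KAR4, FIG1 and AGA1 kept their sign between the variants throughout. List medians were not tested, and some changed sign: sulphur and methionine ran from −1.64 to 1.68 and trehalose and glycogen from −0.64 to 0.006. The depth of 1577778 to 4528833 UMIs limits genes of a few CPM, and with 2 calling-card libraries a window near 0 UMIs has an uncertain fold.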
